A study of Mus musculus with 11 samples.

Results

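The genes described here are 39 mouse genes that mark the endothelium of the liver, of 20145 genes named on the array. They were taken by symbol: probes that are not controls and whose accession maps to one of the 39 symbols in RefSeq were eligible. The brightest eligible probe that passed a filter on dim probes stood for each gene. The symbols were listed with earlier results of these data known. All 39 had a probe, and all passed the filter on dim probes, so none dropped out. They fall into 12 genes of the sinusoidal endothelium, 20 pan-endothelial genes, 3 genes of veins and continuous capillaries, 3 Wnt pathway signals (Wnt2, Wnt9b and Rspo3) and the ligand Bmp2. The series compared livers of 4 WT mice, 3 β-catΔEx3 mice and 4 β-catΔEx3:Myc mice, each on its own 1-colour Agilent array of total RNA.

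β-catΔEx3 denotes β-catenin without exon 3, which removes the sites that mark the protein for degradation and so stabilises it. In β-catΔEx3:Myc livers c-Myc was expressed as well, and these mice carried the β-catenin change too, so no group had c-Myc alone. All mice were untreated males of a hybrid background, mostly B6SJL with some 129S6, aged between 22 and 40 days. An age per mouse was given only for WT replicate 4 (31 days), β-catΔEx3 replicate 3 (30 days) and β-catΔEx3:Myc replicate 4 (29 days). The series text places the samples in tumor-bearing livers, whereas the labels name liver tissue, and neither says whether a nodule or a whole lobe was taken, or in which cells the alleles were active. Every title carries a number of its own, but no label says outright that the arrays came from separate animals, so the p-values measure the spread between these arrays. Replicate numbers here only name arrays, in the order of the records.

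Liver sinusoids are lined by a fenestrated endothelium that takes up waste macromolecules from blood through scavenger, mannose and Fc receptors. Endothelial cells near the central vein also secrete Wnt2, Wnt9b and the R-spondin Rspo3, which keep β-catenin signalling active in the hepatocytes around the vein. Bmp2 from the endothelium is known to induce hepcidin in hepatocytes. When liver endothelium loses its sinusoidal character it is known to take on genes of continuous capillaries, such as Cd34, Vwf and Plvap. The arrays measured RNA of whole tissue, in which fewer endothelial cells and less RNA per endothelial cell cannot be told apart.

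The promoters of 4 genes are printed to show the region before the start site in some of the genes that were called lower with Myc: Mrc1 and Stab1 among the sinusoidal genes, Robo4 among the pan-endothelial genes, and Wnt2. They were chosen after the values and motif matches were known. Each line gives the 250 bases before the RefSeq start site (build GRCm38.p6), read 5′ to 3′ on the gene's strand, and capitals mark CAGGAAG, a core recognised by Ets factors such as Erg, or its reverse complement CTTCCTG.
Mrc1: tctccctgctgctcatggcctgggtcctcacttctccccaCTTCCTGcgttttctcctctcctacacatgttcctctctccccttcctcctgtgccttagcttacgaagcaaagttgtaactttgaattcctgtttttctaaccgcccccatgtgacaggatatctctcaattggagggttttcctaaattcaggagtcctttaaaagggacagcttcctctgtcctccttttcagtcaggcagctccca
Stab1: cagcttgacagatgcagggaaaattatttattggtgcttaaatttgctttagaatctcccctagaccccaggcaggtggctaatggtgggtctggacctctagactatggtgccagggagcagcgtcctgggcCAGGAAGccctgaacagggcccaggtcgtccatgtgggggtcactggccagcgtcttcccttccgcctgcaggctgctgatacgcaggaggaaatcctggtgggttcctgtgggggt
Robo4: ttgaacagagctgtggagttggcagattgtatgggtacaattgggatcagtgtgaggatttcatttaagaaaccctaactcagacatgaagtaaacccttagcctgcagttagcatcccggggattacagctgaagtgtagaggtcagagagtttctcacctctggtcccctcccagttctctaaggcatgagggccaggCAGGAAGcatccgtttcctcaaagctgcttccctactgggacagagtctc
Wnt2: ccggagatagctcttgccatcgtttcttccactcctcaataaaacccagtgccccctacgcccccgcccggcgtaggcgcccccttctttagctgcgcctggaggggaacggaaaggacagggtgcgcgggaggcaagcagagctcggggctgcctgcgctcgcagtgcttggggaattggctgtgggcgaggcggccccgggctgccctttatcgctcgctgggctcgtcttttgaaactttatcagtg
The Mrc1 window is chr2:14229164-14229413 on the plus strand and its match, on the opposite strand, starts 210 bases before the start site. The Stab1 window is chr14:31168642-31168891 on the minus strand, with a match 117 bases before the start. The Robo4 window is chr9:37401722-37401971 on the plus strand, with a match 50 bases before the start. The Wnt2 window, chr6:18030446-18030695 on the minus strand, held no match. RefSeq promoter windows of 300 bases (250 before and 50 after the start) were present for 21 of the 39 genes, in 25 windows. On either strand CAGGAAG occurred in 9 of the 25 windows (8 genes: Cd34, Egfl7, Ehd3, Emcn, Erg, Mrc1, Robo4 and Stab1), against 13.3% of 32851 windows in all. Of 6 strings searched, AGGAAGT, which overlaps the first, occurred in 6 windows against 9.35% in all, the Gata core AGATAA in 2 against 11.2%, and the Tcf/Lef core CTTTGAT in 1 against 3.73%. The Sox core ACAATGG (3.66% in all) and the Fox core TGTTTAC (3.65%) occurred in 0 of the 25. These are descriptions of the letters in these windows, with no test.

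Values are log2 processed signals minus the 75th percentile of the same array, so 0 is that array's upper quartile, and a level is compared between arrays for 1 probe and never between genes. Between 49.0% and 53.4% of spots were well above background per array, and 36 of the 39 genes were so on all 11 arrays (Flt4 on 9, Erg on 8, Wnt2 on 5). Myc transcript, a check of the labels, lay between -0.75 and 2.06 in WT, between 1.15 and 2.21 in β-catΔEx3 and between 2.33 and 4.75 in β-catΔEx3:Myc. The arrays came from 4 slides. WT replicates 1 to 3 filled slide 1 with no mutant beside them, and slide 2 carried replicates 1 and 2 of both mutant groups. β-catΔEx3:Myc replicate 3 was by itself on slide 3. The last slide, slide 4, carried WT replicate 4, β-catΔEx3 replicate 3 and β-catΔEx3:Myc replicate 4. When slide enters the fit as a block, a comparison with WT therefore rests on WT replicate 4. Blocked results are given for most gene lists and for some of the genes whose call they end.

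Most sinusoidal genes were called lower than WT, more of them in β-catΔEx3:Myc. In β-catΔEx3 livers 9 of the 12 fell and none rose (Flt4, Gata4 and Lyve1 did not pass), with a median log2 fold change of -1.08. In β-catΔEx3:Myc livers 11 of 12 fell and none rose (Lyve1 did not pass), with a median of -2.18. A call here is an adjusted p under 0.05 in limma with Benjamini-Hochberg adjustment over 22282 items. Over all items tested 15.6% were called lower in β-catΔEx3 and 17.2% in β-catΔEx3:Myc, and the medians over all items were 0.09 and 0.13. Both comparisons use the same 4 WT arrays. In the blocked fit 0 sinusoidal genes were called in β-catΔEx3 (limma; median -0.55, 9 of 12 below 0) and 5 in β-catΔEx3:Myc (median -1.51, 12 of 12 below 0), where 3.99% and 4.48% of all items were called lower. The 5 were Clec4g, Oit3, Gpr182, Ehd3 and Mrc1, and the 6 that lost their β-catΔEx3:Myc call were Fcgr2b (adjusted p = 0.0532, limma), Stab2 (0.0709), Dnase1l3 (0.0891), Stab1 (0.127), Flt4 (0.135) and Gata4 (0.312).

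**Figure D1:**
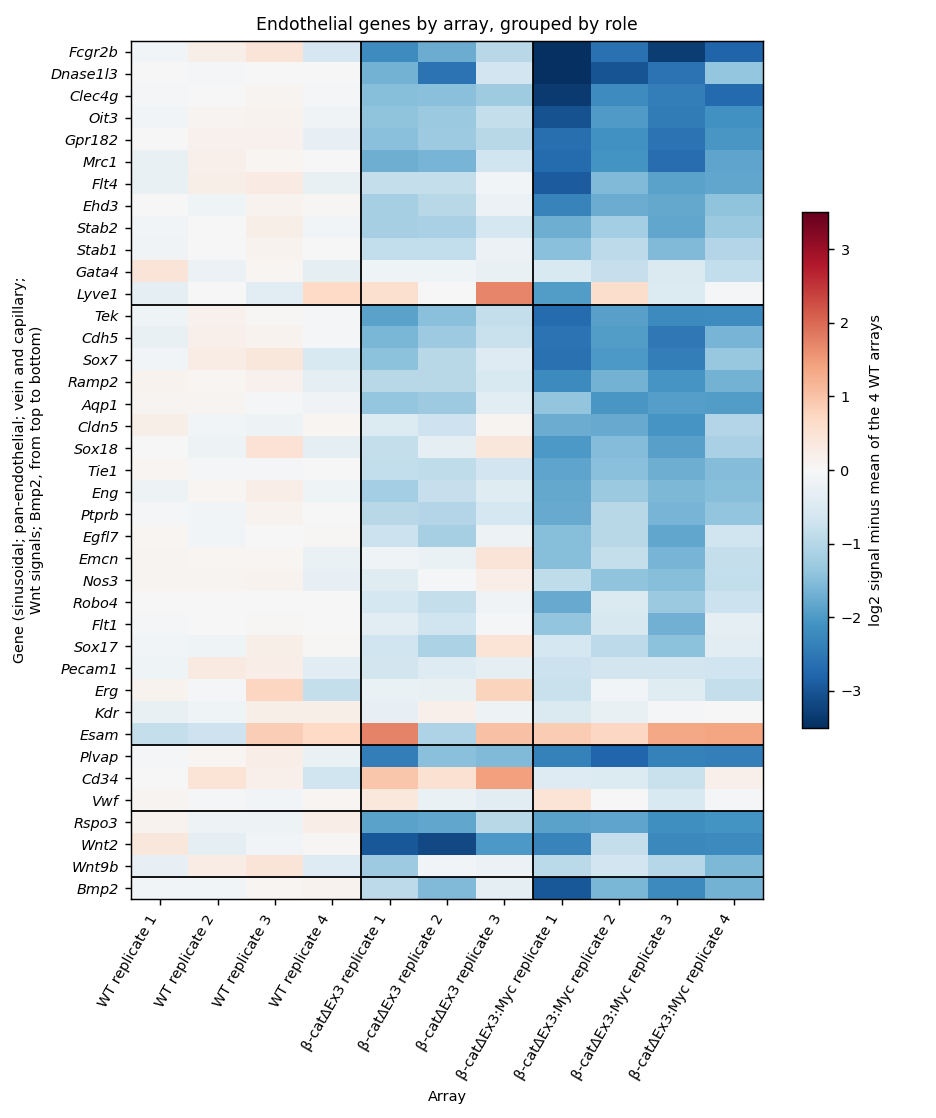
Heat map of the 39 endothelial genes (rows, grouped by role) on the 11 arrays (columns); colour is the log2 signal minus the mean of the 4 WT arrays, blue for lower and red for higher. Most rows turn blue in β-catΔEx3 and darker blue in β-catΔEx3:Myc. The group means of Lyve1, Esam, Vwf, Cd34, Emcn, Erg and Wnt2 do not follow that order.

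Clec4g, a C-type lectin of the sinusoidal endothelium, measured 5.96, 6.0, 6.11 and 5.94 on the WT arrays, 4.51, 4.55 and 4.76 in β-catΔEx3, and 2.65, 3.81, 3.58 and 3.27 in β-catΔEx3:Myc. The 3 groups did not overlap, and the spread was small in WT and widest with Myc. The fall was -1.39 ± 0.24 (SE) in β-catΔEx3 (adjusted p = 0.00156, limma) and -2.67 ± 0.22 in β-catΔEx3:Myc (adjusted p = 1.86e-05). With slide as a block these were -1.24 (adjusted p = 0.124) and -2.61 (adjusted p = 0.0193).

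Stab1 and Stab2 encode scavenger receptors, and Stab2 clears hyaluronan from blood. Stab2 measured 4.81, 4.90, 5.12 and 4.80 in WT, 3.75, 3.76 and 4.30 in β-catΔEx3, and 3.19, 3.71, 3.10 and 3.61 in β-catΔEx3:Myc. All groups were apart, although the highest β-catΔEx3:Myc array lay just under the lowest β-catΔEx3 array. It fell by 0.97 ± 0.21 (SE) on the log2 scale in β-catΔEx3 and by 1.5 ± 0.19 in β-catΔEx3:Myc. Stab1 fell by 0.65 ± 0.22 and 1.23 ± 0.20, and its call in β-catΔEx3 (adjusted p = 0.0383, limma) was lost when any single WT array, β-catΔEx3 replicate 1 or β-catΔEx3 replicate 2 was left out (adjusted p between 0.0540 and 0.136).

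Fcgr2b, the inhibitory Fc receptor that removes small immune complexes, showed the largest fall of the 39 genes in β-catΔEx3:Myc. It measured 2.38, 2.67, 2.94 and 1.90 in WT, 0.27, 0.73 and 1.51 in β-catΔEx3, and -1.16, -0.13, -0.84 and -0.34 in β-catΔEx3:Myc. The groups did not overlap, and WT replicate 4, the WT array on slide 4, was the lowest of WT. The fold changes were -1.64 ± 0.35 (SE; adjusted p = 0.00520, limma) and -3.09 ± 0.33 (adjusted p = 8.16e-05), and -0.62 (adjusted p = 0.467) and -2.0 (adjusted p = 0.0532) with slide as a block. On slide 4 alone the WT array lay at 1.90, the β-catΔEx3 array at 1.51 and the β-catΔEx3:Myc array at -0.34.

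Mrc1, the mannose receptor, whose promoter is printed above, fell by 1.35 ± 0.29 (SE) and 2.33 ± 0.26. Gpr182, an atypical chemokine receptor, fell by 1.24 ± 0.21 and 2.34 ± 0.19, and Oit3, a secreted sinusoidal protein, by 1.19 ± 0.25 and 2.39 ± 0.23. For each of these the 3 groups were apart, in the order WT, β-catΔEx3, β-catΔEx3:Myc. Dnase1l3, a secreted DNase, fell by 1.64 ± 0.54 and 2.69 ± 0.50, and Ehd3, a protein of endocytic recycling, by 0.78 ± 0.26 and 1.82 ± 0.24. The β-catΔEx3 calls of Dnase1l3 (adjusted p = 0.0360, limma) and Ehd3 (adjusted p = 0.0356) were lost on leaving out any 1 WT array or β-catΔEx3 replicate 1 or 2, with adjusted p between 0.0640 and 0.132 for Dnase1l3 and between 0.0557 and 0.142 for Ehd3.

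The remaining sinusoidal genes were Flt4, Gata4 and Lyve1. Flt4, the receptor of Vegfc, had a log2 fold change of -0.59 ± 0.33 (SE; adjusted p = 0.179, limma) in β-catΔEx3 and fell by 2.03 ± 0.30 in β-catΔEx3:Myc, where 2 of 4 arrays were well above background. Gata4, a transcription factor that specifies sinusoidal endothelium, was at -0.19 ± 0.19 in β-catΔEx3 and fell by 0.68 ± 0.18 in β-catΔEx3:Myc (adjusted p = 0.0116, limma).

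Lyve1, a hyaluronan receptor shared by sinusoidal and lymphatic endothelium, passed in neither comparison. It measured 0.04, 0.39, 0.01 and 1.09 in WT, 0.94, 0.39 and 2.10 in β-catΔEx3, and -1.56, 1.00, -0.08 and 0.34 in β-catΔEx3:Myc. The 3 groups overlapped and the arrays of each group were widely spread. The log2 fold changes against WT were 0.76 ± 0.58 (SE; adjusted p = 0.334, limma) and -0.46 ± 0.54 (adjusted p = 0.518), with 95% confidence intervals from -0.52 to 2.04 and from -1.65 to 0.72. Of 3 other genes used as lymphatic markers, 1 fell in β-catΔEx3 and 2 in β-catΔEx3:Myc, against 15.6% and 17.2% of all items called lower. Reln, a secreted protein that stellate cells make too, fell by 2.11 ± 0.29 and 2.36 ± 0.27, also with the block (adjusted p = 0.0276 and 0.0275, limma). Prox1, a transcription factor not restricted to lymphatic endothelium, fell by 0.54 ± 0.16 in β-catΔEx3:Myc, a call lost with the block (adjusted p = 0.0752, limma). Pdpn passed in neither comparison. Which cells these signals came from was not tested.

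**Figure D2:**
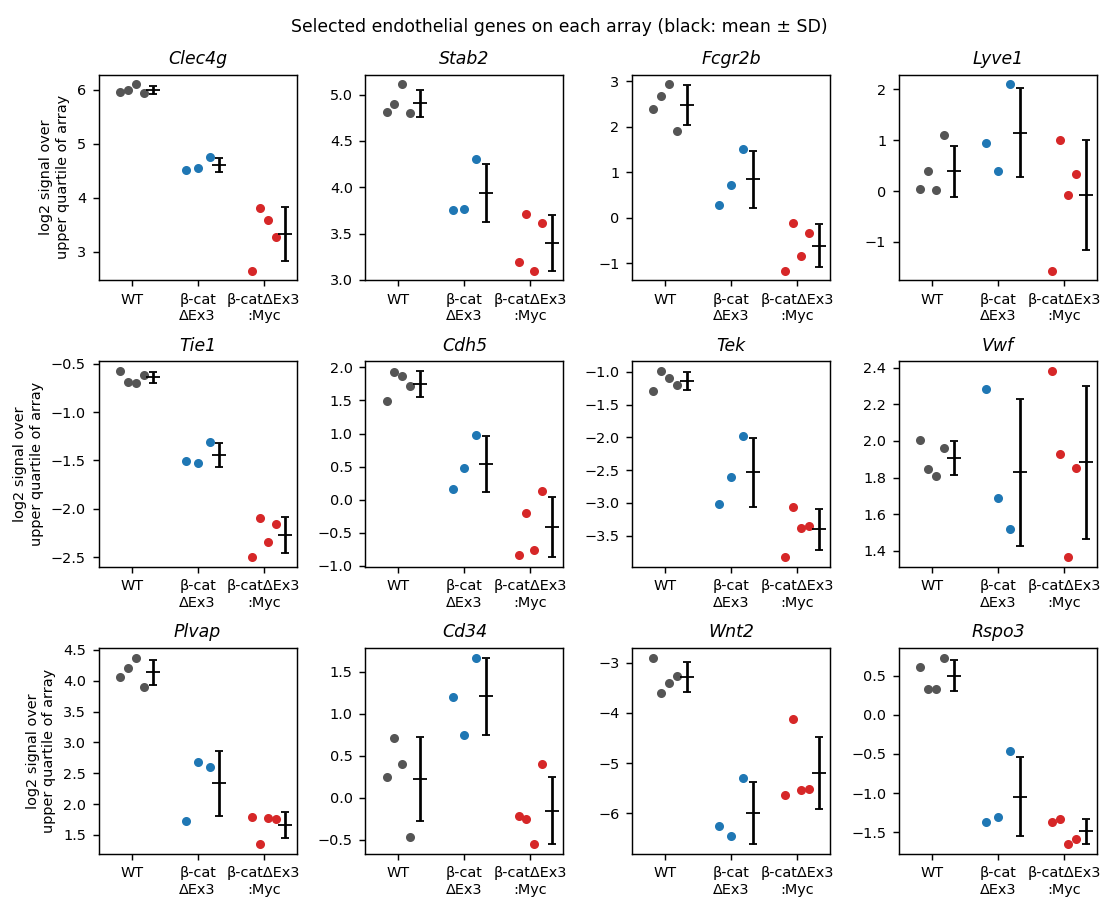
Log2 signal over the array's upper quartile for 12 genes on each array; points are arrays (4 WT, 3 β-catΔEx3, 4 β-catΔEx3:Myc) and black bars the mean ± SD. Clec4g, Stab2, Fcgr2b and Tie1 form 3 separate steps, Lyve1 and Vwf overlap across groups, and Cd34 is highest in β-catΔEx3.

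The pan-endothelial genes that passed were all lower than WT. In β-catΔEx3 7 of 20 fell and none rose (median log2 fold change -0.50). In β-catΔEx3:Myc 16 of 20 fell and none rose (median -1.34). Over all items 15.6% were called lower in β-catΔEx3 and 17.2% in β-catΔEx3:Myc. With the block 0 were called in β-catΔEx3 (limma; median -0.13, 12 of 20 below 0) and 5 in β-catΔEx3:Myc (Tie1, Tek, Cdh5, Cldn5 and Ramp2; median -0.68, 18 of 20 below 0). The blocked fit called 3.99% and 4.48% of all items lower. The 11 pan-endothelial genes that lost their β-catΔEx3:Myc call had blocked adjusted p-values (limma) between 0.0734 (Ptprb) and 0.603 (Pecam1).

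Tie1 and Tek are the receptors of the angiopoietin pathway. Tie1 measured -0.57, -0.69, -0.70 and -0.62 in WT, -1.50, -1.53 and -1.31 in β-catΔEx3, and -2.50, -2.10, -2.34 and -2.15 in β-catΔEx3:Myc. Its groups lay far apart for the width of each. It fell by 0.80 ± 0.14 (SE; adjusted p = 0.00183, limma) and by 1.63 ± 0.13 (adjusted p = 1.64e-05). Tek fell by 1.39 ± 0.25 and 2.26 ± 0.23, the largest falls among the pan-endothelial genes in both comparisons.

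Cdh5, the VE-cadherin of endothelial junctions, measured 1.49, 1.93, 1.87 and 1.72 in WT, 0.15, 0.48 and 0.98 in β-catΔEx3, and -0.84, -0.20, -0.75 and 0.12 in β-catΔEx3:Myc. The 3 groups did not overlap, although β-catΔEx3 replicate 1 and β-catΔEx3:Myc replicate 4 nearly met. It fell by 1.21 ± 0.27 (SE; adjusted p = 0.00592, limma) and 2.17 ± 0.25 (adjusted p = 0.000131). The other genes that fell in both groups were Ramp2, the partner of the adrenomedullin receptor (-0.82 ± 0.21 and -1.90 ± 0.19), the water channel Aqp1 (-1.01 ± 0.24 and -1.83 ± 0.23), the TGF-β co-receptor Eng (-0.80 ± 0.20 and -1.54 ± 0.19), and the junctional phosphatase Ptprb (-0.87 ± 0.20 and -1.44 ± 0.19). The Eng call in β-catΔEx3 was lost without β-catΔEx3 replicate 1 (-0.61, adjusted p = 0.0542, limma).

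A further 9 genes passed in β-catΔEx3:Myc and not in β-catΔEx3. The transcription factors Sox7 and Sox18 fell by 2.09 ± 0.33 (SE) and 1.64 ± 0.30 with Myc, against -0.96 ± 0.35 (adjusted p = 0.0545, limma) and -0.25 ± 0.32 (adjusted p = 0.572) without. Cldn5, a tight junction protein, fell by 1.64 ± 0.25 against -0.36 ± 0.27 without Myc. Emcn, an endothelial sialomucin, fell by 1.19 ± 0.23 against 0.02 ± 0.25, and Nos3, the endothelial nitric oxide synthase, by 1.16 ± 0.21 against -0.08 ± 0.22. Egfl7, a secreted vascular protein, fell by 1.24 ± 0.27, Robo4, a receptor of vessel stability, by 1.08 ± 0.26, Flt1, a VEGF receptor, by 0.99 ± 0.28, and the adhesion molecule Pecam1 by 0.69 ± 0.17. The difference between the mutant groups in these genes is tested further on: none passed without the block, and Cldn5 passed with it.

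Kdr, Esam, Erg and Sox17 passed in neither comparison. Erg and Sox17 are transcription factors of endothelial identity, and their log2 fold changes were 0.10 ± 0.38 (SE) and -0.53 ± 0.35 for Erg, and -0.44 ± 0.35 and -0.84 ± 0.33 (adjusted p = 0.0606, limma) for Sox17. The sign for Erg in β-catΔEx3 turned under 2 alternative settings (-0.08 and -0.02), and 8 of 11 arrays had Erg well above background. Esam, a junction molecule, ranged from -1.45 to 0.26 in WT, from -1.68 to 1.12 in β-catΔEx3 and from 0.10 to 0.77 in β-catΔEx3:Myc, with complete overlap of WT by β-catΔEx3.

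Kdr, the main VEGF receptor, had 2 probes that disagreed. The brighter probe, used here by rule, measured 3.60, 3.71, 4.09 and 4.08 in WT, 3.58, 4.05 and 3.70 in β-catΔEx3, and 3.36, 3.61, 3.81 and 3.88 in β-catΔEx3:Myc. On it the groups overlapped, with log2 fold changes of -0.09 ± 0.20 (SE) and -0.20 ± 0.18. The dimmer probe measured 3.20, 3.29, 3.41 and 3.47 in WT, 2.20, 1.97 and 2.74 in β-catΔEx3, and 0.73, 1.84, 1.30 and 2.09 in β-catΔEx3:Myc. On it both mutant groups lay below every WT array, and Kdr fell by 1.04 ± 0.31 (adjusted p = 0.0237, limma) and 1.85 ± 0.28 (adjusted p = 0.000646), adjusted over all kept probes. This fit was added after the disagreement was seen and was not run with the block, and which probe reports the transcript was not tested. Of the 4 other genes with 2 kept probes (Nos3, Plvap, Ptprb and Sox17), both probes had the same direction against WT and the same calls.

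**Figure D3:**
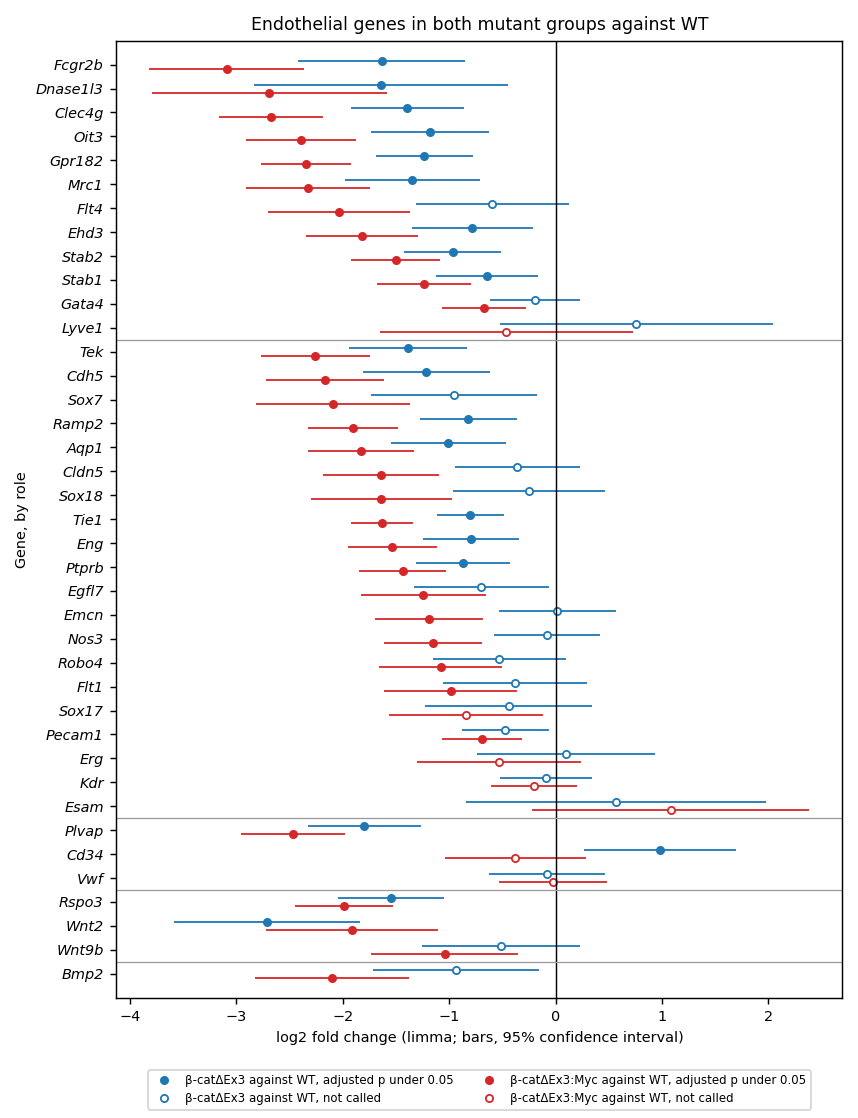
Log2 fold change against WT (x axis) of each gene (y axis, by role) in β-catΔEx3 (blue) and β-catΔEx3:Myc (red), from limma on all 11 arrays; bars are 95% confidence intervals and filled points are called. Red points lie to the left of blue ones for nearly all sinusoidal and pan-endothelial genes, and Cd34 in β-catΔEx3 (0.98) is the single filled point above 0.

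The genes of veins and continuous capillaries did not move together. Plvap, which forms the diaphragms of capillary pores, measured 4.06, 4.21, 4.37 and 3.90 in WT, 1.73, 2.68 and 2.6 in β-catΔEx3, and 1.78, 1.35, 1.78 and 1.75 in β-catΔEx3:Myc. Both mutant groups lay below WT, and β-catΔEx3 replicate 1 lay among the β-catΔEx3:Myc arrays. It fell by 1.80 ± 0.24 (SE; adjusted p = 0.000439, limma) and by 2.47 ± 0.22 (adjusted p = 3.17e-05), and its second probe gave -1.53 and -1.97.

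Cd34, a sialomucin of continuous capillaries and of blood progenitors, measured 0.25, 0.71, 0.40 and -0.47 in WT, 1.20, 0.75 and 1.67 in β-catΔEx3, and -0.22, -0.26, -0.55 and 0.41 in β-catΔEx3:Myc. The β-catΔEx3 arrays lay above all others, by a small margin for replicate 2, and WT and β-catΔEx3:Myc overlapped. It rose by 0.98 ± 0.32 (SE; adjusted p = 0.0355, limma) in β-catΔEx3, where 21.1% of all items were called higher, and by 2.12 (adjusted p = 0.0104) with slide as a block. The unblocked call was lost without WT replicate 1, 3 or 4 or β-catΔEx3 replicate 1 or 3 (adjusted p between 0.0536 and 0.131). In β-catΔEx3:Myc its log2 fold change was -0.38 ± 0.30 (adjusted p = 0.337).

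Vwf, the clotting factor of venous endothelium and of platelets, measured 2.01, 1.85, 1.81 and 1.96 in WT, 2.28, 1.69 and 1.52 in β-catΔEx3, and 2.38, 1.93, 1.36 and 1.85 in β-catΔEx3:Myc. The 3 groups overlapped, and the mutant arrays spread more widely than WT. The log2 fold changes were -0.08 ± 0.25 (SE) and -0.02 ± 0.23, with 95% confidence intervals from -0.62 to 0.47 and from -0.53 to 0.48. Megakaryocyte and platelet genes mark another source of Vwf. In β-catΔEx3:Myc 4 of 6 measured were called higher (Gp9 1.97, Ppbp 1.62, Pf4 1.57 and Gp1bb 1.16, log2), against 25% of all items. Gp9 and Pf4 were also called with the block, against 4.16% of all items. In β-catΔEx3 2 of the 6 were called lower and 0 higher, against 15.6% of all items called lower, and 0 were called with the block. The summed signal of the 6 genes in units of the upper quartile ranged from 2.69 to 3.81 in WT, 1.16 to 2.40 in β-catΔEx3 and 6.98 to 12.0 in β-catΔEx3:Myc. Their part in the Vwf level was not tested.

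Of the 3 Wnt signals of the endothelium, Rspo3 and Wnt2 were called lower in both mutant groups and Wnt9b in β-catΔEx3:Myc. With the block only Rspo3 was called, in both. Rspo3, which amplifies Wnt signalling at its receptors, measured 0.61, 0.33, 0.33 and 0.73 in WT, -1.37, -1.30 and -0.47 in β-catΔEx3, and -1.37, -1.34, -1.65 and -1.59 in β-catΔEx3:Myc. Every mutant array lay below every WT array. Rspo3 fell by 1.55 ± 0.23 (SE; adjusted p = 0.000682, limma) and 1.99 ± 0.21 (adjusted p = 7.75e-05). It was the single member called lower in β-catΔEx3 with slide as a block (-1.57, adjusted p = 0.0487), and its blocked value with Myc was -1.95 (adjusted p = 0.0275).

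Wnt2 measured -2.89, -3.60, -3.39 and -3.26 in WT, -6.26, -6.45 and -5.29 in β-catΔEx3, and -5.63, -4.12, -5.53 and -5.51 in β-catΔEx3:Myc. It was well above background on all 4 WT arrays, on 0 of 3 β-catΔEx3 arrays and on 1 of 4 β-catΔEx3:Myc arrays. On the scale used here, the WT mean of Wnt2 lay 3.34-fold above the lowest signals that counted as above background on the β-catΔEx3 arrays. Group means were -6.0 in β-catΔEx3 and -3.29 in WT (adjusted p = 0.000676, limma). In β-catΔEx3:Myc the fitted log2 difference from WT was -1.91 ± 0.37 (SE; adjusted p = 0.00217), with 3 of the 4 arrays near background. The size of both differences depended on the background correction: normexp gave -0.50 in both mutant groups (adjusted p = 0.0155 and 0.00906, limma). The 3.34-fold is therefore not a lower bound under every setting. With the block both calls were lost (adjusted p = 0.0791 and 0.201), and no fold between the mutant groups is given. Wnt9b measured -2.18, -1.64, -1.45 and -2.34 in WT, -3.16, -1.99 and -2.11 in β-catΔEx3, and -2.85, -2.58, -2.89 and -3.47 in β-catΔEx3:Myc. WT and β-catΔEx3 overlapped, and all β-catΔEx3:Myc arrays lay below WT. It fell by 1.04 ± 0.31 (adjusted p = 0.0202) with Myc and was at -0.52 ± 0.34 (adjusted p = 0.253) without, and the call with Myc was lost without WT replicate 2 or 3 or β-catΔEx3:Myc replicate 4 (adjusted p between 0.0516 and 0.0593) and with the block (-0.72, adjusted p = 0.483). On slide 4 Wnt9b was 0.23 higher on the β-catΔEx3 array than on the WT array.

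Bmp2 measured 2.39, 2.41, 2.55 and 2.6 in WT, 1.57, 0.93 and 2.16 in β-catΔEx3, and -0.47, 0.90, 0.27 and 0.84 in β-catΔEx3:Myc. The 3 groups were apart, with the β-catΔEx3:Myc arrays lowest. It fell by 2.10 ± 0.33 (SE; adjusted p = 0.000668, limma) with Myc and was at -0.94 ± 0.35 (adjusted p = 0.0592) in β-catΔEx3. With the block the call with Myc was lost (-1.67, adjusted p = 0.105, limma). Bmp6, the other endothelial inducer of hepcidin, was 0.86 ± 0.25 higher in β-catΔEx3 (adjusted p = 0.0196; 0.377 with the block) and passed in no other comparison.

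Over all 39 genes 19 fell and 1 rose in β-catΔEx3 (median log2 fold change -0.78), and 32 fell and 0 rose in β-catΔEx3:Myc (median -1.63, and Esam, at 1.08 ± 0.59 with an adjusted p of 0.165, was the single gene fitted above 0). Over all items 15.6% were called lower and 21.1% higher in β-catΔEx3, and 17.2% lower and 25% higher in β-catΔEx3:Myc. At an unadjusted p under 0.05 in limma 0 of the 39 rose in β-catΔEx3:Myc, a threshold at which the share of all items was not counted. Groups did not overlap, with the mutant lower, for 23 genes in β-catΔEx3 and 33 in β-catΔEx3:Myc, against 19% and 17.6% of all items. Setting Wnt2 in β-catΔEx3 to the lowest signals that counted as above background kept Wnt2 below the median there. The median of -0.78 therefore could not move. In the blocked fit 1 fell and 1 rose in β-catΔEx3 (median -0.34), and 12 fell and 0 rose in β-catΔEx3:Myc (median -1.09). That fit called 3.99% and 4.48% of all items lower, and 4.03% and 4.16% higher. Within slide 4, 25 of 39 genes were lower on the β-catΔEx3 array than on the WT array, and 37 of 39 on the β-catΔEx3:Myc array, including all 12 sinusoidal genes.

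β-catΔEx3 replicate 3 stood apart from its group: it was the highest of the 3 arrays for 33 of the 39 genes. It is the slide 4 array of its group, the median of its sinusoidal genes was -0.63 relative to the WT mean, and the other replicates were at -1.29 and -1.21. Without it 23 genes fell and 0 rose in β-catΔEx3. WT replicate 4, also on slide 4, was the lowest of WT for 18 of 39, and without it 18 fell and 0 rose. Slide and animal cannot be told apart for these arrays.

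Whether Myc added to the change was asked of the mutant groups directly. Fitted values were lower in β-catΔEx3:Myc than in β-catΔEx3 for 36 of 39 genes, with a median of -0.83, against 0.02 over all items. No gene passed in either direction after adjustment (limma), where 0.144% of all items were called lower and 0.108% higher. At an unadjusted p under 0.05, 25 were lower and 0 higher. The share of all items at that unadjusted threshold was not counted, so these 2 counts have no background to be read against. Group ranges did not overlap for 22 genes, all lower with Myc, against 4.12% of all items. The smallest adjusted p was that of Tie1 (-0.83 ± 0.14 SE, adjusted p = 0.0502), followed by Clec4g (-1.28 ± 0.24, adjusted p = 0.0600) and Gpr182 (-1.11 ± 0.21, adjusted p = 0.0600). With other settings between 0 and 3 genes passed.

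Slides 2 and 4 hold both mutant groups, so the difference can be read within a slide. On slide 2 the mean of the β-catΔEx3:Myc arrays was below that of the β-catΔEx3 arrays for 35 of 39 genes (median difference -0.64), and on slide 4 for 36 of 39 (median -1.08). All 12 sinusoidal genes were lower with Myc on both slides. In the blocked fit 2 genes passed, both lower with Myc: Cldn5 (-1.14, adjusted p = 0.0309) and Cd34 (-1.23, adjusted p = 0.0416), where 0.292% of all items were called lower and 0.521% higher. Esam, Vwf and Wnt2 were the genes fitted above 0, at 0.52 ± 0.64 (SE) for Esam and 0.05 ± 0.25 for Vwf, while Wnt2 was near background in both groups. The order of group means was WT, then β-catΔEx3, then β-catΔEx3:Myc for 32 of 39 genes, and for 15 of these no arrays of neighbouring groups overlapped, among them 8 sinusoidal and 6 pan-endothelial genes. The share of all items in this order was not counted, so these counts have no background to be read against.

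**Figure D4:**
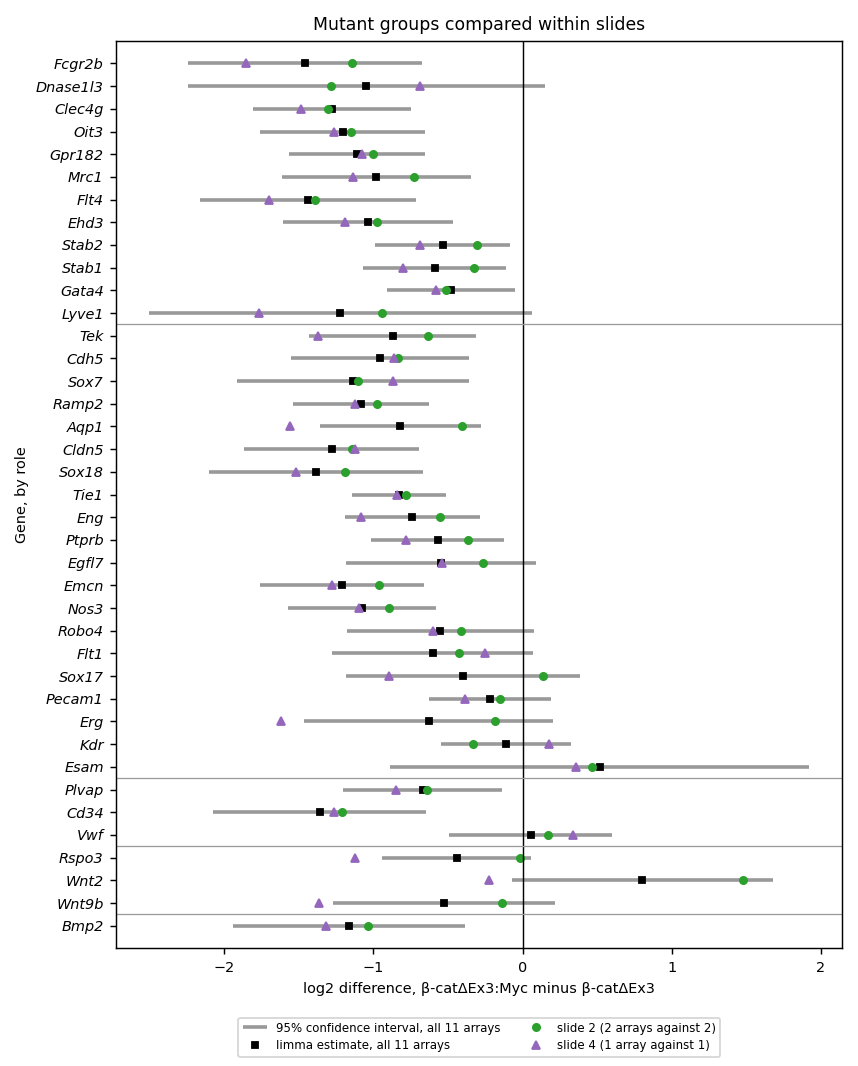
Log2 difference between β-catΔEx3:Myc and β-catΔEx3 (x axis) for each gene (y axis): black squares and grey bars give the limma estimate and 95% confidence interval over all 11 arrays, green circles the difference of means on slide 2 (2 arrays each) and purple triangles that on slide 4 (1 array each). Both slides place 12 of 12 sinusoidal genes below 0.

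Other endothelial genes were counted in the same way. The shares of all items called lower were 15.6% in β-catΔEx3 and 17.2% in β-catΔEx3:Myc, and those called higher 21.1% and 25%. With the block these were 3.99% and 4.48% lower, and 4.03% and 4.16% higher. Of 22 further pan-endothelial genes, 11 fell and 0 rose in β-catΔEx3 (median log2 fold change -0.75) and 18 fell and 0 rose in β-catΔEx3:Myc (median -1.41). Mcam, an adhesion molecule also of pericytes, fell by 2.95 ± 0.42 (SE) and 1.99 ± 0.39, and S1pr1, the sphingosine phosphate receptor, by 1.98 ± 0.46 and 2.53 ± 0.42. Adgrl4, an adhesion receptor of vessels, fell by 1.12 ± 0.30 and 2.38 ± 0.28. With the block 1 fell and 2 rose in β-catΔEx3 (median -0.42), and 4 fell in β-catΔEx3:Myc (median -0.94), with Mcam among the calls in both and S1pr1 and Adgrl4 in neither. Of 13 further genes used as sinusoidal markers, 5 fell and 3 rose in β-catΔEx3, and 7 fell and 2 rose in β-catΔEx3:Myc. The counts that rose are near or below the shares over all items. Among those that fell were Maf, a transcription factor (-1.04 ± 0.18 and -2.12 ± 0.17), and Hgf, the hepatocyte growth factor (-1.32 ± 0.29 and -2.23 ± 0.27). The lowest fitted value of this list in β-catΔEx3 was that of Fcer1g (-1.92). Those that rose included the fatty acid transporter Cd36 (3.43 ± 0.25 and 2.05 ± 0.23) and the protease Ctsl (1.67 ± 0.25 and 1.68 ± 0.23), which hepatocytes also make. Which cells the signal came from was not tested, for the genes that fell or for those that rose. With the block 0 fell and 1 rose (Cd36) in β-catΔEx3, and 4 fell and 1 rose in β-catΔEx3:Myc. Maf was still called there, and Hgf and Ctsl were not.

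Genes of particular vessel types went both ways. Of 8 central vein genes, Kit, a receptor kinase, fell by 1.47 ± 0.24 (SE) and 2.33 ± 0.22, and Lhx6, a transcription factor, rose by 2.40 ± 0.35 and 1.37 ± 0.32. Rab3b, Thbd and Cdh13 were called in β-catΔEx3:Myc and not in β-catΔEx3, a difference between the mutant groups that did not pass; they fell by 3.38 ± 0.54, 1.87 ± 0.36 and 1.71 ± 0.24 with Myc, making 1 lower and 1 higher in β-catΔEx3, and 4 lower and 1 higher in β-catΔEx3:Myc. The β-catΔEx3 counts are below the shares over all items (15.6% lower and 21.1% higher). With the block Kit was called in both groups, Lhx6 in β-catΔEx3 and Cdh13 in β-catΔEx3:Myc. Of 9 portal and arterial genes 3 fell and 1 rose in β-catΔEx3, and 5 fell and 1 rose in β-catΔEx3:Myc. Msr1 had the lowest fitted values of these (-1.35 and -1.89) and Dll4 the highest (2.71 and 1.44), and their cell source was not tested. The elastic fibre protein Ltbp4 fell by 0.53 ± 0.18 and 1.71 ± 0.17, and it was also lower in β-catΔEx3:Myc than in β-catΔEx3 (-1.18 ± 0.18, adjusted p = 0.0273, limma). Of 3 genes of caveolae, Cav2 fell in both groups (-0.90 ± 0.22 and -2.14 ± 0.20). With the block 0 portal and arterial genes were called in β-catΔEx3 and 2 in β-catΔEx3:Myc, Ltbp4 among them, and Cav2 was called in β-catΔEx3:Myc. The Ltbp4 difference between the mutant groups did not pass with the block (adjusted p = 0.0597, limma).

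Signals to the endothelium were counted as well. Of 13 genes of VEGF, angiopoietin and apelin signalling, 3 rose and 3 fell in each comparison, where 21.1% and 25% of all items were called higher and 15.6% and 17.2% lower. Esm1 and Dll4, genes of sprouting tip cells, rose by 3.26 ± 0.63 (SE) and 2.71 ± 0.47 in β-catΔEx3 and by 2.04 ± 0.58 and 1.44 ± 0.44 in β-catΔEx3:Myc, and Vegfd, a ligand of Flt4, by 2.0 ± 0.30 and 2.09 ± 0.28. Vegfc, the other ligand of Flt4, fell by 1.17 ± 0.22 and 1.13 ± 0.20, and the co-receptor Nrp2 by 1.08 ± 0.15 and 1.90 ± 0.14. Vegfa, the main ligand of Kdr, was at 0.16 ± 0.23 and -0.24 ± 0.21 and passed in neither. With the block Nrp2 was called in both comparisons and Vegfd in β-catΔEx3 (adjusted p = 0.0485, limma), while Esm1, Dll4 and Vegfc were called in neither.

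Other Wnt genes were counted beside Wnt2 and Rspo3. Of 12 Wnt, R-spondin and Wnt secretion genes measured, 2 rose and 1 fell in β-catΔEx3, and 3 rose and 3 fell in β-catΔEx3:Myc, against the same shares of all items. Wnt10a, not well above background on any WT array (mean -6.44), was called higher in β-catΔEx3 (mean -2.01, adjusted p = 1.11e-05, limma). It was also called higher in β-catΔEx3:Myc (mean -4.17, adjusted p = 0.000249, limma), where 2 of 4 arrays measured it. These mutant means lay 5.83-fold and 1.31-fold above the lowest signals that counted as above background on the WT arrays. Wls, which carries Wnt proteins to the cell surface, fell by 1.16 ± 0.21 (SE) and 2.04 ± 0.20. Wnt4 rose by 3.00 ± 0.58 and Wnt5a fell by 2.20 ± 0.30 in β-catΔEx3:Myc. With the block Wnt10a was called in β-catΔEx3, and Wls and Wnt5a in β-catΔEx3:Myc, where Wnt10a (adjusted p = 0.0513, limma) and Wnt4 (0.0503) were not.

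Markers of other liver cells differed in direction. The shares of all items called lower were 15.6% in β-catΔEx3 and 17.2% in β-catΔEx3:Myc, and those called higher 21.1% and 25%. With slide as a block 3.99% and 4.48% were called lower. Of 8 Kupffer cell genes, 7 fell in β-catΔEx3 and 8 in β-catΔEx3:Myc (medians -3.09 and -3.02), and their summed signal, in units of the upper quartile, ranged from 216 to 336 in WT, 18.4 to 53.3 in β-catΔEx3 and 16.2 to 59.8 in β-catΔEx3:Myc. Cd163 was not well above background on any β-catΔEx3:Myc array. Macrophages also express Mrc1, Stab1, Fcgr2b and Lyve1, and the part of macrophages in those 4 genes was not tested. With the block the medians of the 8 Kupffer cell genes were -2.28 and -2.57 and 0 of them were called in either (limma). Between the mutant groups 0 of the 8 were called in limma, and 0 at an unadjusted p under 0.05 (median -0.32), where all items were not counted. Of 10 stellate and mesenchymal genes 4 fell in β-catΔEx3 and 7 in β-catΔEx3:Myc, with summed signals of 172 to 247 in WT, 86.0 to 105 in β-catΔEx3 and 45.2 to 72.2 in β-catΔEx3:Myc, and with the block 1 and 2 were called. Of 6 hepatocyte genes 4 and 3 fell, with medians of -0.82 and -0.70, and Alb was at -0.20 ± 0.17 (SE) and -0.30 ± 0.15. With the block 1 hepatocyte gene was called lower in each. Of 6 lymphocyte genes 4 fell in each comparison and 1 rose in β-catΔEx3:Myc. Of 5 neutrophil genes 1 rose in each comparison and 0 fell, with medians of -1.92 and 1.44. Of 5 erythroid genes 2 fell in β-catΔEx3, and 1 fell and 1 rose in β-catΔEx3:Myc (medians -2.85 and -0.45). Of 5 cholangiocyte genes 1 rose in β-catΔEx3 and 1 fell in β-catΔEx3:Myc (medians 0.31 and -0.11). The neutrophil and cholangiocyte counts, and the erythroid counts in β-catΔEx3:Myc, are near or below the shares over all items. With the block 0 lymphocyte, erythroid and cholangiocyte genes were called in either comparison. Of the 5 neutrophil genes the blocked fit called 0 in β-catΔEx3 and 1 in β-catΔEx3:Myc, which was higher, against 4.16% of all items. For comparison, the summed signal of the 39 endothelial genes ranged from 314 to 353 in WT, 158 to 226 in β-catΔEx3 and 90.7 to 130 in β-catΔEx3:Myc. The part of cell numbers in these levels was not tested.

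**Figure D5:**
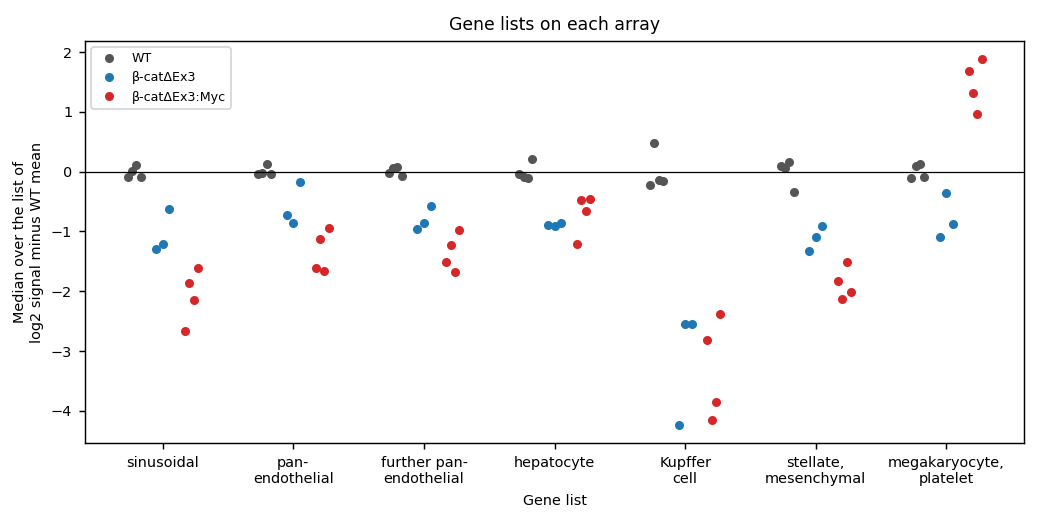
Median over each gene list (x axis) of the log2 signal minus the mean of the WT arrays (y axis), with 1 point per array and colours for the 3 groups. Sinusoidal and pan-endothelial lists step down from WT to β-catΔEx3 to β-catΔEx3:Myc, Kupffer cell genes are similarly low in both mutant groups, and megakaryocyte and platelet genes are high in β-catΔEx3:Myc.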

How the data were processed

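Per the file headers, the authors read each 1-colour array with Agilent Feature Extraction 10.7.1.1 and deposited processed intensity, background-subtracted and on a linear scale. A table of log2 values that the authors deposited holds the same quantiles on every array (median 4.51) and served as an alternative; no source used here states its normalization. Outlier spots were left out, log2 signals were scaled to each array's 75th percentile, and spots were averaged per probe. Probes well above background on at least 3 of 11 arrays were kept. Names came from RefSeq (26582 of 55681 probes), with unnamed probes grouped by accession, and the brightest probe stood for a gene. The scaling and the grouping of unnamed probes were changed once, after counts over all items were seen, to match an earlier treatment of these files.

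The means of the 3 groups were fitted to all arrays with limma 3.58.1 in R 4.3.3 (2-sided, Benjamini-Hochberg over 22282 items, threshold 0.05), after tests on simulated data. The number of arrays limits the precision. Alternatives were quantile and other percentile scaling, normexp (offset 50, on the median foreground where the mean had been planned), other filters, the matrix, slide as a block, probe means, leaving out each array (keeping filter and probe choice) and, added later, second probes. The genes and lists were chosen with earlier results of these data known. All 39 endothelial genes are accounted for; of other lists, the genes named are among the up to 3 called genes with the largest change per comparison, with Bmp6, Alb, Prox1, Pdpn, Cd163, Vegfa, Maf, Adgrl4, Ctsl and other examples chosen after their values were seen.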

Additional observations from a re-analysis of the deposited data

Results flagged for a closer look

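In groups of 4 arrays, 5 of 78 combinations of a gene and a group held an array far from the others for the width of the group, and chance alone gives about 1 in 20. Wnt2 on β-catΔEx3:Myc replicate 2 stood at -4.12, with the other arrays of the group between -5.63 and -5.51, and this was the array of its group with Wnt2 above background. Plvap on the same array stood at 1.35, with the others between 1.75 and 1.78. On WT replicate 4, Emcn stood at -2.42, with the others between -2.12 and -2.09, and Nos3 at 1.34, with the others between 1.72 and 1.74. Dnase1l3 on WT replicate 2 stood at 1.26, with the others between 1.33 and 1.34.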

How the results depend on the processing

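The count of endothelial genes lower in β-catΔEx3:Myc than in WT stayed between 32 and 33 under every setting but slide as a block (12) and, with 1 array left out, between 31 and 33. The count lower in β-catΔEx3 lay between 16 and 23 under the other settings, fell to 1 with slide as a block, and ranged from 15 to 23 with 1 array left out. The count higher in β-catΔEx3 was 0 with the percentile taken over probes detected on all arrays and with no filter on dim probes, and 0 to 1 with 1 array left out. The count lower in β-catΔEx3:Myc than in β-catΔEx3 was 1 with quantile scaling, 1 with the deposited matrix, 3 with normexp, 3 with probes detected on all arrays of a group, 2 with slide as a block, and 0 to 1 with 1 array left out. The blocked fit has 5 residual degrees of freedom in place of 8 and draws the contrast with WT from 1 WT array; the causes of the other shifts were not tested.

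Signs turned only for genes not called on either side. In β-catΔEx3 with slide as a block these were Flt4 (0.046), Gata4 (0.026), Sox7 (0.16), Sox17 (0.10), Sox18 (0.63), Nos3 (0.47) and Cldn5 (0.044), and in β-catΔEx3:Myc Erg (0.46) and Cd34 (0.89). The percentile over detected probes gave Emcn -0.16 and Erg -0.077, and normexp gave Erg -0.020. With 1 array left out, the ranges that crossed 0 were in β-catΔEx3 against WT Kdr -0.23 to 0.0094, Emcn -0.20 to 0.14, Esam -0.017 to 1.39, Erg -0.24 to 0.35, Sox18 -0.58 to 0.034, Nos3 -0.24 to 0.10, Vwf -0.30 to 0.079; in β-catΔEx3:Myc against WT Lyve1 -0.82 to 0.032, Vwf -0.19 to 0.15; in β-catΔEx3:Myc against β-catΔEx3 Kdr -0.21 to 0.024, Esam -0.30 to 1.1, Sox17 -0.74 to 0.063, Vwf -0.11 to 0.28. The percentile over detected probes moved the median of all items from 0.09 to -0.08 in β-catΔEx3 and from 0.13 to -0.01 in β-catΔEx3:Myc. Over all items, it turned the calls in β-catΔEx3 from 4710 higher and 3485 lower to 3414 higher and 4662 lower, and with β-catΔEx3:Myc from 5580 and 3839 to 4434 and 4741. With slide as a block the calls over all items were 898 higher and 888 lower, and 926 and 998. No paired analysis was possible because the labels give the groups no shared replicate numbers. Flt4, Erg and Wnt2 lie near background on some arrays, which limits their fold changes.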
